A study of Homo sapiens with 37 samples.

Results

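Cholesterol and fatty-acid synthesis were followed through 33 listed genes, chosen by name with earlier results of these data known, and grouped by role. They are 18 enzymes of sterol synthesis, 5 regulators and carriers of sterols (INSIG1, STARD4, SREBF1, SREBF2 and SCAP), 7 genes of fatty-acid synthesis and desaturation, and 3 genes of sterol efflux and uptake control that are targets of the liver X receptors, LXR (ABCA1, ABCG1 and MYLIP). Of the 33, 32 matched an identifier among the 57773 genes of the count tables. ACACA, the first committed enzyme of fatty-acid synthesis, did not, and only its promoter was searched here. All 32 passed the filter on low counts in all 9 comparisons, so no member entered or left a comparison through its level.

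Total RNA of 37 libraries of cultured human cells in 17 groups was sequenced after depletion of ribosomal RNA, to compare models of cellular senescence with their controls. HAEC come from the endothelium of the aorta and HUVEC from that of the umbilical vein, while IMR-90 and WI-38 are diploid fibroblast strains from fetal lung. Irradiated HAEC (4 Gy, 3 libraries) were set against 2 control libraries, both at population doubling level 4 to 6. Irradiated HUVEC (4 Gy, 3 libraries) were set against 3 control libraries, at level 3 to 5. The fibroblast groups held 2 libraries each. IMR-90 were irradiated (10 Gy) or grown to level 52 by repeated passage, and both groups were set against the same libraries labelled proliferating, at level 15. WI-38 were given doxorubicin, a drug that damages DNA, at 2 µg/mL over 24 h, in a first experiment and in a repeat, each with its own controls. WI-38 that carried the mutant HRAS(G12v), an oncogene, on a lentivirus were set against WI-38 with an empty vector, and both had been infected at a multiplicity of 10 and selected with puromycin at 1 µg/mL. WI-38 were also irradiated (10 Gy) and set against controls, or grown to level 53 to 55 and set against proliferating cells. All WI-38 groups other than late passage were at level 25. The time between treatment and collection is not given in the sources used here, and nothing says that replicates came from separate cultures or donors, so the p-values measure the spread between these libraries, which may be technical.

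Cells make cholesterol from acetyl-CoA through mevalonate, the isoprenoids and squalene, and most genes of this path are switched on together by SREBP2, the product of SREBF2. SREBP proteins are held in the endoplasmic reticulum by SCAP and INSIG1 and are released when sterols in that membrane run low; SREBP1, the product of SREBF1, acts more on fatty-acid genes. For cholesterol, LXR receptors do the opposite job. They are turned on by oxysterols and switch on ABCA1 and ABCG1, which export cholesterol, and MYLIP. MYLIP is a ubiquitin ligase that leads to loss of lipoprotein receptors from the cell surface. In bulk RNA, fewer cells of a kind and less RNA per cell cannot be told apart.

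Promoters are shown because most sterol enzymes moved one way in most comparisons, and because SREBP acts beside the factor NF-Y, which binds the letters CCAAT. The part of these letters in the changes was not tested. RefSeq promoter sequences (GRCh38.p14, 250 bases before to 50 after each start) were found for 28 of the 33 listed members. These include ACACA, which has no counts here, and lack FASN, so the 6 fatty-acid genes below are not the 6 with counts. The letters CCAAT, on either strand, were in a promoter of 13 of 15 sterol enzymes (86.7%), of 4 of 6 fatty-acid genes (66.7%), of 3 of 5 regulators (60%) and of 1 of 2 LXR targets (50%). Over all members this was 21 of 28 genes (75%), beside 39.7% of the 27305 genes in the table, and by promoter 25 of 37 (67.6%), beside 34.6% of 35116. A sterol regulatory element-like run, TCACNCCAC on either strand, was in the promoter of 1 of 28 members, SREBF2 (3.57%), beside 1.39% of all genes. A match is a description of letters, and no match says only that these letters are not in this window. The stretches below lie upstream of the start, read 5′ to 3′ on the gene's strand; capitals mark CCAAT or its reverse complement ATTGG and, in SREBF2, also the sterol regulatory element-like run, and no matches overlap. Shown are HMGCS1, MSMO1, EBP and MVD of the enzymes, INSIG1 and SREBF2 of the regulators and SCD of the fatty-acid genes. Each gene shown has a match, and its window was placed to hold the most matched letters. The stretches are therefore examples of matches and do not describe their classes. No CCAAT was found in the promoters of CYP51A1, PMVK, SREBF1, SCAP, ELOVL6, FADS1 and ABCA1.
HMGCS1 (chr5:43313493-43313582, minus strand, 170 to 81 bases upstream): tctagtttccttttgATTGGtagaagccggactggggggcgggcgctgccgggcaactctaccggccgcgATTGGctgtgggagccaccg
MSMO1 (chr4:165327519-165327608, plus strand, 150 to 61 bases upstream): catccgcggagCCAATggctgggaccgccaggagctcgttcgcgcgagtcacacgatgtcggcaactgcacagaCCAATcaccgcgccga
EBP (chrX:48521716-48521805, plus strand, 92 to 3 bases upstream): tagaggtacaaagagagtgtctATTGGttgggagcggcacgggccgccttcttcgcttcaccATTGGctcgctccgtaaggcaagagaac
MVD (chr16:88663166-88663255, minus strand, 164 to 75 bases upstream): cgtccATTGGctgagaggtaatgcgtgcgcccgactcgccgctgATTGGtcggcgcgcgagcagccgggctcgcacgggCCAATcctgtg
INSIG1 (chr7:155297666-155297755, plus strand, 212 to 123 bases upstream): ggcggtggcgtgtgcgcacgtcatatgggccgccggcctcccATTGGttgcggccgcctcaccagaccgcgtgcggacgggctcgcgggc
SREBF2 (chr22:41832944-41833033, plus strand, 161 to 72 bases upstream): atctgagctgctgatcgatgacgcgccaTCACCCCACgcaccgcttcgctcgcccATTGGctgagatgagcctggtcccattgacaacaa
SCD (chr10:100346983-100347072, plus strand, 250 to 161 bases upstream): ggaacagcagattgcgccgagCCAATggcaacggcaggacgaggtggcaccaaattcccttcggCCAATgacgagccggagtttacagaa
In windows placed this way, the 4 enzyme stretches hold 2 or 3 matches each, and those of INSIG1 and SCD 1 and 2.

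Library totals ran from 102293388 to 370996204 counts, and 50.7% to 66.9% of counts were in protein-coding genes in 25 libraries, those of both endothelial cells, IMR-90, the first doxorubicin and the HRAS experiments, against 82.0% to 91.1% in the other 12, from WI-38 in the doxorubicin repeat, after irradiation or at late passage. Cell strain, experiment and kind of library therefore cannot be told apart where these sets are compared. Values below are CPM, read counts scaled to a common library total within each set of libraries. The cell labels were checked against 8 endothelial and 8 fibroblast markers. Endothelial markers summed to 1306 to 1795 CPM in endothelial libraries, against 48.2 to 308 CPM in fibroblasts, and fibroblast markers to 1044 to 14930 CPM in fibroblasts, against 15.7 to 38.7 CPM in endothelial libraries. In the HRAS experiment, HRAS itself had 1944 and 1989 CPM in WI-38 with HRAS, against 36.1 and 47.04 CPM in WI-38 with empty vector (log2 fold change 5.56, SE 0.17, adjusted p = 1.54e-09). Division was followed by 16 marker genes such as MKI67. In IMR-90 these went against the labels: they summed to 719 and 717 CPM in irradiated and 534 and 482 CPM in late-passage cells, against 468 and 458 CPM in the libraries labelled proliferating.

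In irradiated HAEC the sterol path was lower almost throughout, while the LXR targets were higher. Of the 32 members, 25 fell and 4 rose, where 19.9% of the 28024 genes tested fell and 19.7% rose. All but 1 of the 18 sterol enzymes fell (median log2 fold change -0.54, beside 0.01 over all genes tested); TM7SF2 did not pass the test. With all 37 libraries in 1 fit 10 members fell. EBP, the isomerase that shifts the double bond of the sterol ring, had 25.3, 24.3 and 25.6 CPM in irradiated HAEC, against 52.7 and 48.4 CPM in control HAEC (log2 fold change -1.01, SE 0.045, adjusted p = 1.84e-13). HMGCS1, which makes HMG-CoA at the entry of the mevalonate path, had 45.9, 46.1 and 47.1 CPM in irradiated HAEC, against 92.7 and 92.2 CPM in control HAEC (log2 fold change -0.995, SE 0.034, adjusted p = 2.86e-15). In both genes the irradiated libraries lay together, well below the controls. Among the regulators 3 fell, and SREBF1, which encodes SREBP1, rose. SREBF1 had 19.95, 19.7 and 19.2 CPM in irradiated HAEC, against 16.1 and 15.8 CPM in control HAEC (log2 fold change 0.30, SE 0.052, adjusted p = 9.75e-05). Of the 6 fatty-acid genes 5 fell. ELOVL6, which lengthens C16 fatty acids, had 8.89, 8.85 and 8.22 CPM in irradiated HAEC, against 18.1 and 17.8 CPM in control HAEC (log2 fold change -1.06, SE 0.062, adjusted p = 1.5e-11). FADS1, the delta-5 desaturase of polyunsaturated fatty acids, had 87.6, 85.8 and 87.6 CPM in irradiated HAEC, against 126 and 123 CPM in control HAEC (log2 fold change -0.52, SE 0.033, adjusted p = 5.88e-11). The groups did not overlap in any of these genes. All 3 LXR targets rose. ABCA1, the pump that loads cholesterol onto apolipoproteins, had 13.6, 14.6 and 13.5 CPM in irradiated HAEC, against 1.14 and 0.352 CPM in control HAEC (log2 fold change 4.10, SE 0.19, adjusted p = 3.74e-13). The 2 controls were apart from each other, and without control 1 the log2 fold change of ABCA1 was 5.31. The 16 division markers all fell (median -1.31), summing to 859 to 886 CPM in irradiated HAEC and 2221 to 2291 CPM in controls; their part in the fall of the sterol enzymes was not tested.

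Irradiated HUVEC, the other endothelial model, also had lower sterol enzymes and higher LXR targets. Of the members, 18 fell and 9 rose, where 20.1% of the 27519 genes tested fell and 18.6% rose; with all 37 libraries in 1 fit 5 fell and 3 rose. Of the sterol enzymes 15 fell and 1 rose (median -0.29, beside 0.01 over all genes). ACAT2, the thiolase that joins acetyl-CoA units, had 82.9, 81.3 and 79.1 CPM in irradiated HUVEC, against 120.4, 126 and 129.9 CPM in control HUVEC (log2 fold change -0.63, SE 0.038, adjusted p = 1.25e-12). HMGCS1 had 82.4, 82.8 and 85.6 CPM in irradiated HUVEC, against 119, 128 and 138 CPM in control HUVEC (log2 fold change -0.62, SE 0.043, adjusted p = 2.02e-11). TM7SF2, a sterol reductase of the late path and the enzyme that rose, had 2.72, 2.34 and 2.19 CPM in irradiated HUVEC, against 1.67, 1.67 and 1.56 CPM in control HUVEC (log2 fold change 0.57, SE 0.13, adjusted p = 0.000775). TM7SF2 was the least abundant of these. ACAT2 shares 52.3% of its exon bases with genes on the opposite strand, among them TCP1, so its counts are uncertain here and below. SREBF2 and SCAP rose among the regulators. SREBF2, which encodes SREBP2, had 111, 112 and 113 CPM in irradiated HUVEC, against 101, 92.4 and 97.6 CPM in control HUVEC (log2 fold change 0.21, SE 0.037, adjusted p = 7.24e-05). The fatty-acid genes did not move one way: 3 rose and 2 fell. FADS2, the delta-6 desaturase, had 289.7, 306 and 301 CPM in irradiated HUVEC, against 261, 239 and 258 CPM in control HUVEC (log2 fold change 0.24, SE 0.039, adjusted p = 1.65e-05). ELOVL6 had 22.8, 21.9 and 22.7 CPM in irradiated HUVEC, against 26.5, 26.8 and 29.01 CPM in control HUVEC (log2 fold change -0.29, SE 0.046, adjusted p = 1.4e-05). Both changes were small, with groups that did not overlap. FADS1 had 185, 184 and 183 CPM in irradiated HUVEC, against 173, 163 and 175 CPM in control HUVEC (log2 fold change 0.11, SE 0.036, adjusted p = 0.0174). ACLY, which makes cytosolic acetyl-CoA from citrate, had 307, 308 and 314 CPM in irradiated HUVEC, against 334, 329 and 337 CPM in control HUVEC (log2 fold change -0.11, SE 0.035, adjusted p = 0.0173). These calls were small and rest on single libraries: FADS1 lost its call without control 2 (adjusted p = 0.15) or without irradiated library 1 (adjusted p = 0.0769), and ACLY without irradiated library 1 (adjusted p = 0.0662) or 2 (adjusted p = 0.0519). SCD, higher by 0.10 on the log2 scale, lost its call without control 2 (adjusted p = 0.176) or any irradiated library (0.0512 to 0.112). SCAP lost its call without control 3 (adjusted p = 0.15) or irradiated library 3 (adjusted p = 0.257). All 3 LXR targets rose again. ABCA1 had 8.86, 9.34 and 9.53 CPM in irradiated HUVEC, against 4.07, 4.16 and 3.58 CPM in control HUVEC (log2 fold change 1.23, SE 0.08, adjusted p = 5.04e-12). Every irradiated library held over 8 CPM of ABCA1 and every control under 5. The 16 division markers fell (median -0.66), to 1412 to 1444 CPM in irradiated HUVEC, against 2217 to 2397 CPM in controls.

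**Figure D1:**
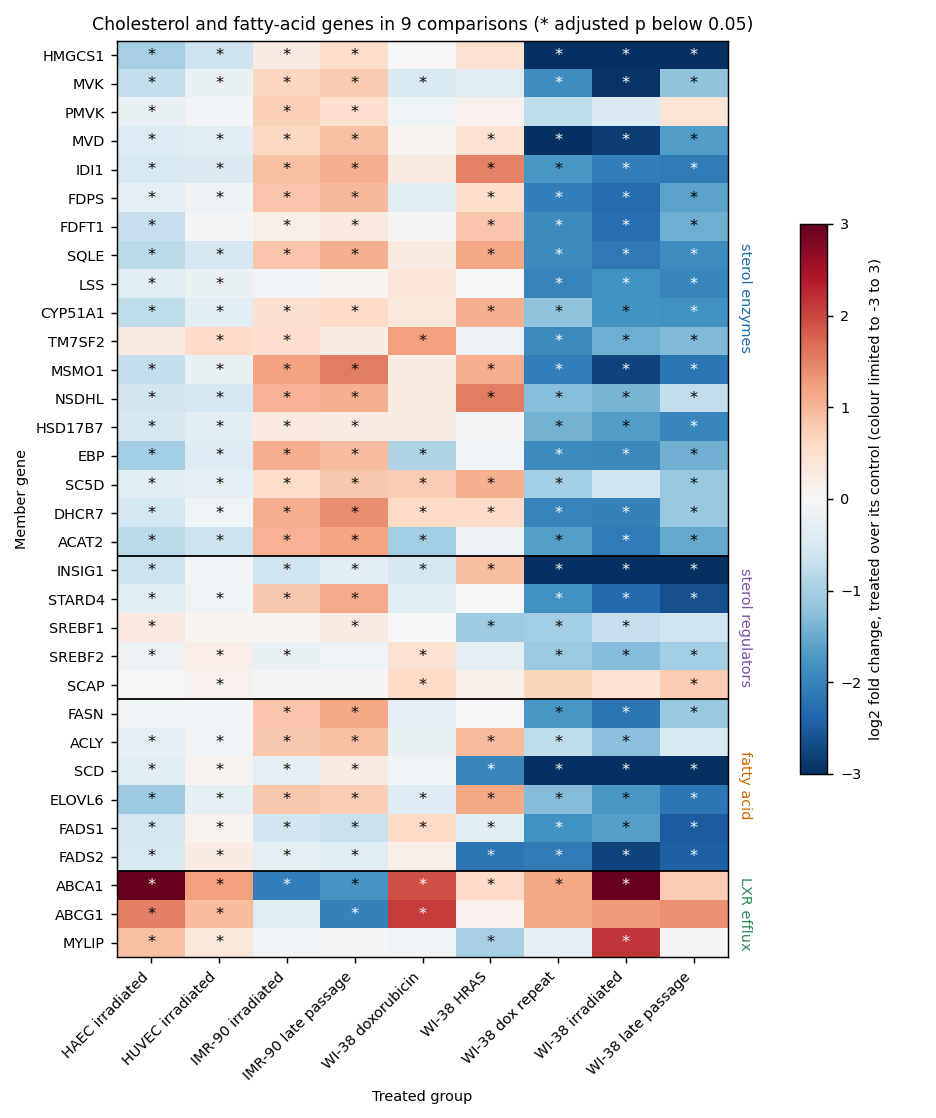
Log2 fold change of each of the 32 members (rows, by class) in the 9 comparisons (columns, named by the treated group); red is higher and blue lower in the treated group, and a star marks an edgeR adjusted p below 0.05. Most of the 18 sterol enzymes are blue in HAEC, HUVEC and the last 3 WI-38 columns and red in both IMR-90 columns, with 17 and 16 of them called higher there.

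In IMR-90 the sterol enzymes went the other way. Both groups share their 2 control libraries, so the columns are not independent. With irradiation 21 members rose and 6 fell, where 26.6% of the 29274 genes tested rose and 22.5% fell; with all 37 libraries in 1 fit 2 fell. Among sterol enzymes 17 rose (median 0.69, beside -0.02 over all genes), and LSS did not pass the test. MSMO1, the C4-methyl sterol oxidase, had 78.3 and 82.6 CPM in irradiated IMR-90, against 33.7 and 36.1 CPM in IMR-90 labelled proliferating (log2 fold change 1.20, SE 0.062, adjusted p = 1.43e-09). EBP had 18.6 and 18.9 CPM in irradiated IMR-90, against 8.01 and 9.71 CPM in IMR-90 labelled proliferating (log2 fold change 1.08, SE 0.089, adjusted p = 1.79e-07). The regulators split: STARD4, a carrier of sterols between membranes, rose, while INSIG1, which holds SREBP back, and SREBF2 fell. INSIG1 had 20.7 and 21.3 CPM in irradiated IMR-90, against 31.3 and 32.5 CPM in IMR-90 labelled proliferating (log2 fold change -0.60, SE 0.06, adjusted p = 1.34e-06). SREBF2 had 41.5 and 42.9 CPM in irradiated IMR-90, against 52.5 and 46.7 CPM in IMR-90 labelled proliferating (log2 fold change -0.23, SE 0.065, adjusted p = 0.00907). SREBF2 lost its call without irradiated library 1 (adjusted p = 0.103) or without control 1 (adjusted p = 0.136). The fatty-acid genes split by step, with FASN, ACLY and ELOVL6 higher and the desaturases SCD, FADS1 and FADS2 lower. FASN, the fatty-acid synthase, had 22.6 and 23.6 CPM in irradiated IMR-90, against 13.4 and 12.6 CPM in IMR-90 labelled proliferating (log2 fold change 0.83, SE 0.086, adjusted p = 1.94e-06). ACLY had 279 and 274 CPM in irradiated IMR-90, against 160.5 and 155 CPM in IMR-90 labelled proliferating (log2 fold change 0.81, SE 0.057, adjusted p = 3.6e-08). Both stood clear of the controls. FADS1 had 73.3 and 76.5 CPM in irradiated IMR-90, against 111 and 111 CPM in IMR-90 labelled proliferating (log2 fold change -0.57, SE 0.055, adjusted p = 9.22e-07). FADS2 had 78.7 and 81.95 CPM in irradiated IMR-90, against 102 and 96.2 CPM in IMR-90 labelled proliferating (log2 fold change -0.30, SE 0.057, adjusted p = 0.000482). Among the LXR targets ABCA1 fell, and ABCG1 and MYLIP did not pass the test. ABCA1 had 78.5 and 76.5 CPM in irradiated IMR-90, against 334 and 309.7 CPM in IMR-90 labelled proliferating (log2 fold change -2.05, SE 0.06, adjusted p = 5.21e-12). Every irradiated library of IMR-90 lay far below every library labelled proliferating.

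Late-passage IMR-90 also had higher sterol enzymes and lower ABCA1. Of the members, 22 rose and 5 fell, where 26.6% of the genes tested rose and 23.5% fell, and of the sterol enzymes 16 rose (median 0.85, beside -0.04 over all genes), while LSS and TM7SF2 did not pass the test. With all 37 libraries in 1 fit 3 members fell. MSMO1 had 97.3 and 104 CPM in late-passage IMR-90, against 33.7 and 36.1 CPM in IMR-90 labelled proliferating (log2 fold change 1.53, SE 0.063, adjusted p = 1.2e-10). DHCR7, the last reductase on the way to cholesterol, had 39.7 and 40.9 CPM in late-passage IMR-90, against 17.1 and 13.3 CPM in IMR-90 labelled proliferating (log2 fold change 1.40, SE 0.093, adjusted p = 1.78e-08). The late-passage values lay far above the controls in both. INSIG1 had 25.5 and 25.9 CPM in late-passage IMR-90, against 31.3 and 32.5 CPM in IMR-90 labelled proliferating (log2 fold change -0.31, SE 0.06, adjusted p = 0.000564). In the fatty-acid class 4 rose and 2 fell. FASN had 31.7 and 26.2 CPM in late-passage IMR-90, against 13.4 and 12.6 CPM in IMR-90 labelled proliferating (log2 fold change 1.15, SE 0.086, adjusted p = 6.28e-08). ACLY had 300.4 and 281 CPM in late-passage IMR-90, against 160.5 and 155 CPM in IMR-90 labelled proliferating (log2 fold change 0.89, SE 0.057, adjusted p = 1.41e-08). The desaturases of polyunsaturated fatty acids were again the ones that fell. FADS1 had 68.7 and 71.6 CPM in late-passage IMR-90, against 111 and 111 CPM in IMR-90 labelled proliferating (log2 fold change -0.67, SE 0.055, adjusted p = 1.9e-07). FADS2 had 76.2 and 79.2 CPM in late-passage IMR-90, against 102 and 96.2 CPM in IMR-90 labelled proliferating (log2 fold change -0.35, SE 0.057, adjusted p = 0.000139). ABCA1 and ABCG1 both fell. ABCG1, an exporter of cholesterol to lipoproteins, had 0.334 and 0.214 CPM in late-passage IMR-90, against 1.38 and 0.884 CPM in IMR-90 labelled proliferating (log2 fold change -2.03, SE 0.30, adjusted p = 6.22e-05). ABCA1 had 95.3 and 92.2 CPM in late-passage IMR-90, against 334 and 309.7 CPM in IMR-90 labelled proliferating (log2 fold change -1.78, SE 0.06, adjusted p = 1.53e-11). ABCG1 was low in all 4 libraries, so its size is less certain than that of ABCA1. Beside these changes, 15 of the 16 division markers were higher with irradiation (median 0.69) and 9 higher and 1 lower at late passage (median 0.23). Of the 8 fibroblast markers 7 fell with irradiation, summing to 3150 and 3224 CPM, and 6 at late passage, to 4792 and 5141 CPM, against 14930 and 14179 CPM in the cells labelled proliferating. Smooth muscle markers, of which 3 rose and 2 fell in both, summed to 1876 and 1920 CPM with irradiation. They summed to 2034 and 2545 CPM at late passage, against 683 and 710 CPM. MYOCD, which fell, had 3.96 and 3.60 CPM with irradiation and 9.11 and 8.65 CPM at late passage, against 114 and 101 CPM. MYH11 had 1.13 and 1.27 CPM with irradiation and 1.55 and 1.11 CPM at late passage, against 15.2 and 14.4 CPM. Epithelial markers, 4 of 5 higher in both, summed to 65.1 and 68.4 CPM with irradiation and 72.8 and 60.8 CPM at late passage, against 13.6 and 13.1 CPM. The part of these shifts in the sterol genes was not tested.

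**Figure D2:**
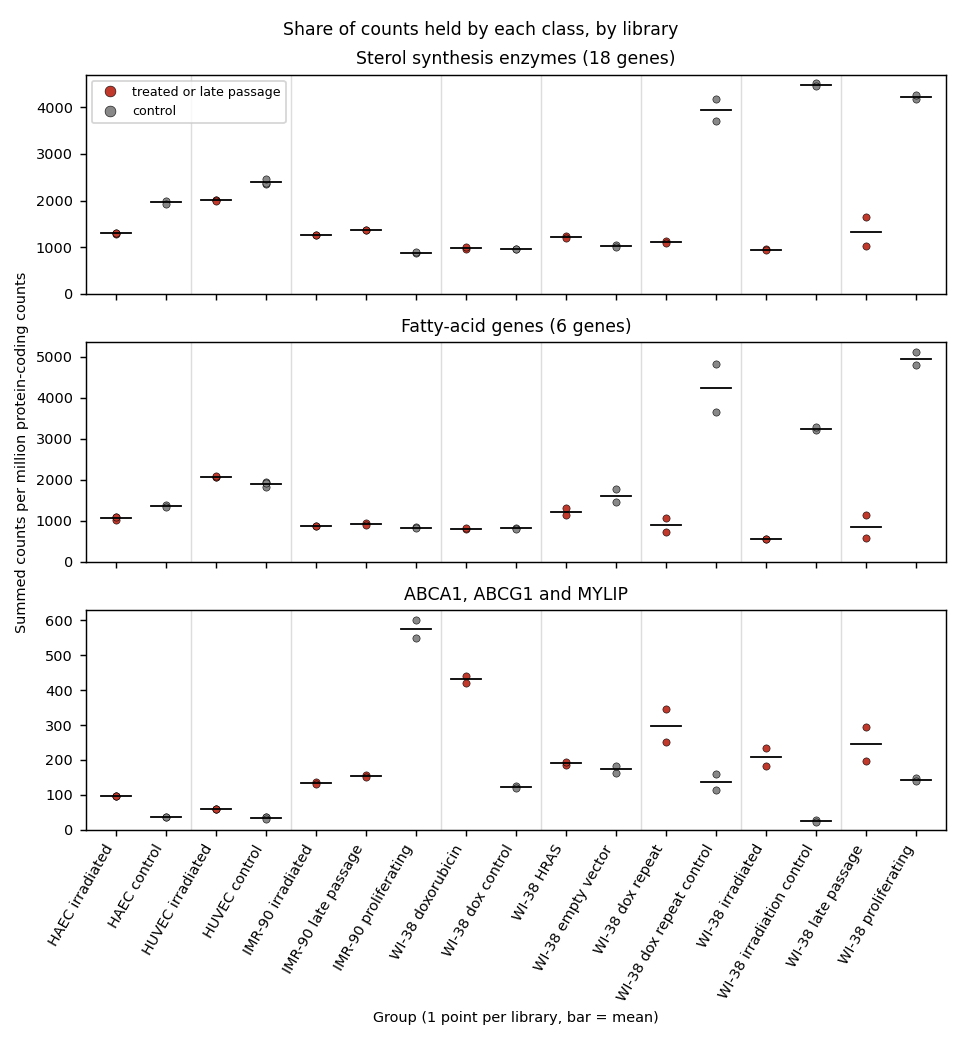
Protein-coding CPM (CPM counted over protein-coding genes alone) summed over the 18 sterol enzymes, the 6 fatty-acid genes and the 3 LXR targets, 1 point per library, with treated groups left of their controls and bars at the mean. Controls of the last 3 WI-38 experiments stand at 3713 to 4517 for the sterol enzymes, and their treated libraries at 941 to 1655.

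The first doxorubicin experiment in WI-38 raised ABCA1 and ABCG1 and left most sterol enzymes without a call. Of the members, 8 rose and 5 fell, where 13.6% of the 29380 genes tested rose and 13.2% fell; of the sterol enzymes 3 rose, 3 fell and 12 did not pass the test (median 0.23, beside 0.01 over all genes). TM7SF2 had 2.71 and 3.13 CPM in doxorubicin-treated WI-38, against 1.63 and 0.851 CPM in control WI-38 (log2 fold change 1.24, SE 0.28, adjusted p = 0.00663). SC5D, the C5 desaturase of sterols, had 30.4 and 31.2 CPM in doxorubicin-treated WI-38, against 19.2 and 17.3 CPM in control WI-38 (log2 fold change 0.76, SE 0.23, adjusted p = 0.0268). For TM7SF2 and SC5D the treated libraries lay above the controls. ACAT2 had 32.5 and 31.5 CPM in doxorubicin-treated WI-38, against 64.1 and 67.4 CPM in control WI-38 (log2 fold change -1.04, SE 0.16, adjusted p = 0.000448). EBP had 9.45 and 9.84 CPM in doxorubicin-treated WI-38, against 17.4 and 18.7 CPM in control WI-38 (log2 fold change -0.90, SE 0.14, adjusted p = 0.00055). In both genes every treated library lay well below every control. INSIG1 fell and SREBF2 and SCAP rose among the regulators. In the fatty-acid class FADS1 rose and ELOVL6 fell. FADS1 had 102 and 104 CPM in doxorubicin-treated WI-38, against 70.1 and 67.2 CPM in control WI-38 (log2 fold change 0.59, SE 0.11, adjusted p = 0.00229). ELOVL6 had 12.7 and 12.8 CPM in doxorubicin-treated WI-38, against 16.9 and 16.7 CPM in control WI-38 (log2 fold change -0.40, SE 0.13, adjusted p = 0.0464). The groups did not overlap in either gene. ABCA1 and ABCG1 rose. ABCG1 had 4.97 and 5.27 CPM in doxorubicin-treated WI-38, against 1.18 and 1.22 CPM in control WI-38 (log2 fold change 2.09, SE 0.23, adjusted p = 3.13e-05). ABCA1 had 239 and 226 CPM in doxorubicin-treated WI-38, against 62.9 and 61.2 CPM in control WI-38 (log2 fold change 1.91, SE 0.12, adjusted p = 3.32e-07). All 16 division markers fell (median -3.64), to 147 and 157 CPM with doxorubicin, against 1268 and 1314 CPM in controls. Of the 8 fibroblast markers 5 rose, and the list summed to 8194 and 7949 CPM with doxorubicin, against 4578 and 4507 CPM in controls. Of 5 smooth muscle markers 3 fell, with sums of 592 and 645 CPM with doxorubicin, against 1296 and 1416 CPM. Of 5 epithelial markers 3 fell and 1 rose, with sums of 14.996 and 16.5 CPM, against 28.99 and 31.7 CPM. Endothelial markers, 2 higher and 6 lower, summed to 248 and 237 CPM, against 103 and 107 CPM; TEK made up most of it, with 237 and 223 CPM, against 92.5 and 93.4 CPM. The part of these markers in the members' changes was not tested. With the doxorubicin groups fitted alone 14 members rose and 9 fell, and with either treated library or either control left out 3 to 5 rose and 2 fell. Among the genes above, SC5D lost its call without any of the 4 libraries (adjusted p 0.0906 to 0.16), as did ELOVL6 (0.188 to 0.24); TM7SF2 lost it without control 2 (adjusted p = 0.0662) and FADS1 without treated library 2 (adjusted p = 0.0582). SREBF2 (adjusted p 0.134 to 0.224) and SCAP (0.0587 to 0.15) lost theirs without any of the 4.

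Mutant HRAS in WI-38 split the fatty-acid class and raised much of the sterol path. Of the members, 14 rose and 5 fell, where 27.1% of the genes tested rose and 18.9% fell. Of 18 sterol enzymes 10 rose and 8 did not pass the test (median 0.49, beside 0.07 over all genes). NSDHL, a C4-demethylating dehydrogenase of sterols, had 19.97 and 21.8 CPM in WI-38 with HRAS, against 6.71 and 7.63 CPM in WI-38 with empty vector (log2 fold change 1.54, SE 0.16, adjusted p = 1.27e-05). IDI1, the isomerase that activates isoprenoid units, had 46.4 and 33.2 CPM in WI-38 with HRAS, against 18.8 and 9.60 CPM in WI-38 with empty vector (log2 fold change 1.49, SE 0.25, adjusted p = 0.00048). The libraries numbered 1 held more IDI1 than those numbered 2 in both groups, and the groups still did not overlap. SREBF1 fell and INSIG1 rose. SREBF1 had 17.9 and 22.3 CPM in WI-38 with HRAS, against 35.5 and 49.3 CPM in WI-38 with empty vector (log2 fold change -1.08, SE 0.17, adjusted p = 0.000249). ELOVL6 had 15.2 and 13.4 CPM in WI-38 with HRAS, against 6.74 and 6.004 CPM in WI-38 with empty vector (log2 fold change 1.17, SE 0.14, adjusted p = 2.76e-05). ACLY had 497 and 546 CPM in WI-38 with HRAS, against 245 and 299 CPM in WI-38 with empty vector (log2 fold change 0.94, SE 0.13, adjusted p = 8.99e-05). Thus the enzyme that supplies acetyl-CoA and a C16 elongase were higher, while 3 desaturases were lower. FADS2 had 30.7 and 35.3 CPM in WI-38 with HRAS, against 133 and 169 CPM in WI-38 with empty vector (log2 fold change -2.20, SE 0.14, adjusted p = 2.19e-07). SCD, the delta-9 desaturase that makes oleate, had 46.1 and 52.95 CPM in WI-38 with HRAS, against 168 and 219 CPM in WI-38 with empty vector (log2 fold change -1.96, SE 0.15, adjusted p = 7.74e-07). Both desaturases were well below the empty vector in each library. FADS1 also fell, by less. ABCA1 had 114 and 116 CPM in WI-38 with HRAS, against 72.6 and 82.9 CPM in WI-38 with empty vector (log2 fold change 0.57, SE 0.12, adjusted p = 0.00203). MYLIP, the ubiquitin ligase named above, had 3.34 and 2.98 CPM in WI-38 with HRAS, against 6.15 and 6.53 CPM in WI-38 with empty vector (log2 fold change -1.003, SE 0.15, adjusted p = 0.000188). ABCA1 lost its call when these groups were fitted alone (log2 fold change 0.42, adjusted p = 0.0904). Of the 16 division markers 15 fell (median -2.15), to 139 and 142 CPM with HRAS, against 470 and 513 CPM with the empty vector. All 8 fibroblast markers fell as well, to 1044 and 1156 CPM, against 6067 and 7090 CPM, and 7 of 8 endothelial markers rose, although their sum was 48.2 and 52.1 CPM with HRAS and 77.7 and 74.9 CPM with the empty vector. All 5 smooth muscle markers fell, to 349.9 and 369 CPM, against 1525 and 1870 CPM. The part of these markers in the members' changes was not tested.

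The repeat of the doxorubicin experiment gave large falls. Of the members, 27 fell and 1 rose, where 2.26% of the 33612 genes tested fell and 3.18% rose. Of the sterol enzymes 17 fell (median -1.90, beside 0.04 over all genes), PMVK did not pass the test, and all 6 fatty-acid genes fell (median -1.78). MVD, the mevalonate diphosphate decarboxylase, had 8.45 and 9.21 CPM in doxorubicin-treated WI-38, against 141 and 53.5 CPM in control WI-38 (log2 fold change -3.46, SE 0.37, adjusted p = 7.05e-05). HMGCS1 had 17.3 and 15.9 CPM in doxorubicin-treated WI-38, against 196 and 168 CPM in control WI-38 (log2 fold change -3.45, SE 0.31, adjusted p = 2.08e-05). The MVD controls were far apart, and without control 1 its log2 fold change was -2.60. SCD had 311 and 168 CPM in doxorubicin-treated WI-38, against 1794 and 2577 CPM in control WI-38 (log2 fold change -3.19, SE 0.52, adjusted p = 0.00229). FADS2 had 114 and 65.6 CPM in doxorubicin-treated WI-38, against 363 and 414 CPM in control WI-38 (log2 fold change -2.11, SE 0.31, adjusted p = 0.000994). Every treated library lay below every control in these 4 genes. ABCA1 was the member that rose. ABCA1 had 282 and 206 CPM in doxorubicin-treated WI-38, against 87.3 and 132 CPM in control WI-38 (log2 fold change 1.15, SE 0.26, adjusted p = 0.0179). It lost its call without control 1 (adjusted p = 0.198) or without treated library 1 (adjusted p = 0.109). With all 37 libraries in 1 fit 3 members rose, and with DESeq2 2. Of the 16 division markers 3 fell (median -0.49), with sums of 228 and 210 CPM in treated cells and 307 and 381 CPM in controls. Beside these, 3 of 8 fibroblast markers rose, with sums of 6826 and 8812 CPM, against 3433 and 5126 CPM, and 2 of 5 epithelial markers fell, with sums of 9.17 and 9.58 CPM, against 49.6 and 24.6 CPM. Smooth muscle markers, of which 1 rose and 0 fell, summed to 292 and 382 CPM, against 498 and 548 CPM. Endothelial markers, 1 higher and 1 lower, summed to 306 and 308 CPM, against 97.0 and 143 CPM. TEK made up most of this, with 304 and 306 CPM, against 93.3 and 140 CPM. The part of these markers was not tested.

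Irradiated WI-38 showed large falls of both synthesis classes and a large rise of ABCA1. Of the members, 26 fell and 2 rose, where 6.09% of the genes tested fell and 8.89% rose. In the sterol path 16 enzymes fell (median -2.04, beside -0.06 over all genes), as did all 6 fatty-acid genes (median -1.97). INSIG1 had 11.9 and 10.03 CPM in irradiated WI-38, against 141 and 141 CPM in control WI-38 (log2 fold change -3.68, SE 0.47, adjusted p = 9.38e-05). HMGCS1 had 12.8 and 11.7 CPM in irradiated WI-38, against 131 and 129 CPM in control WI-38 (log2 fold change -3.41, SE 0.31, adjusted p = 4.43e-06). Both genes were even within each group. SCD had 114 and 99.6 CPM in irradiated WI-38, against 1380.2 and 1418 CPM in control WI-38 (log2 fold change -3.71, SE 0.53, adjusted p = 0.000245). FADS2 had 53.02 and 74.01 CPM in irradiated WI-38, against 396 and 471 CPM in control WI-38 (log2 fold change -2.77, SE 0.32, adjusted p = 3.22e-05). SCD and INSIG1 had the lowest fold changes of the 32 members here. ABCA1 and MYLIP rose. ABCA1 had 199.9 and 155 CPM in irradiated WI-38, against 21.2 and 18.7 CPM in control WI-38 (log2 fold change 3.16, SE 0.28, adjusted p = 3.52e-06). MYLIP had 8.83 and 9.09 CPM in irradiated WI-38, against 2.17 and 1.90 CPM in control WI-38 (log2 fold change 2.14, SE 0.22, adjusted p = 1.45e-05). ABCG1 had a log2 fold change of 1.27 and did not pass the test (adjusted p = 0.138). Of the division markers 15 fell (median -3.35), to 246 and 267 CPM in irradiated WI-38, against 1170 and 1210 CPM in controls. The share of counts in mitochondrial genes was 9.71% and 14.02% in irradiated WI-38, against 6.31% and 6.99% in controls. Of 5 smooth muscle markers 2 fell, with sums of 461 and 531 CPM, against 999.8 and 1187 CPM. Of 8 fibroblast markers 3 rose, with sums of 6610 and 6903 CPM, against 4903 and 5149 CPM, and 2 of 5 epithelial markers fell, with sums of 18.99 and 23.2 CPM, against 40.4 and 50.3 CPM. The part of these shifts in the members' changes was not tested.

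Late-passage WI-38 had lower synthesis genes, and calls among the LXR targets depended on the fit. Of the members, 25 fell and 1 rose, where 6.82% of the genes tested fell and 5.8% rose. As many as 17 sterol enzymes fell (median -1.58, beside 0.01 over all genes) and PMVK did not pass the test. HMGCS1 had 23.7 and 10.01 CPM in late-passage WI-38, against 203 and 216 CPM in proliferating WI-38 (log2 fold change -3.64, SE 0.31, adjusted p = 3.19e-06). INSIG1 had 30.5 and 6.73 CPM in late-passage WI-38, against 208 and 233 CPM in proliferating WI-38 (log2 fold change -3.57, SE 0.47, adjusted p = 0.000137). SCD had 447 and 91.1 CPM in late-passage WI-38, against 3066 and 2784 CPM in proliferating WI-38 (log2 fold change -3.44, SE 0.52, adjusted p = 0.000509). Late-passage library 1 held more of all 3 than library 2, and both were far below the proliferating cells. Without library 1 the log2 fold change was -4.35 for HMGCS1, -4.99 for INSIG1 and -4.97 for SCD, and without library 2 it was -2.86 for INSIG1 and -2.71 for SCD. FADS1 had 176 and 107 CPM in late-passage WI-38, against 816 and 779 CPM in proliferating WI-38 (log2 fold change -2.50, SE 0.26, adjusted p = 1.68e-05). SCAP, the escort protein of SREBP and the member that rose, had 15.2 and 21.1 CPM in late-passage WI-38, against 11.6 and 9.90 CPM in proliferating WI-38 (log2 fold change 0.75, SE 0.23, adjusted p = 0.0417). SCAP lost its call without late-passage library 2 (adjusted p = 0.363) and without proliferating library 1 (adjusted p = 0.118) or 2 (adjusted p = 0.318). ABCA1 had 261 and 164 CPM in late-passage WI-38, against 131 and 119 CPM in proliferating WI-38, a log2 fold change of 0.77 that did not pass the test (adjusted p = 0.0675). It rose beside SCAP with the compared groups fitted alone, with DESeq2 and without the filter (adjusted p 0.00836 to 0.0461), and with all 37 libraries in 1 fit ABCA1 and ABCG1 both rose (0.0113 and 0.00182). Of the division markers 12 fell (median -1.36), to 135 and 154 CPM at late passage, against 433 and 448 CPM in proliferating cells. The mitochondrial share was 8.71% and 5.78% at late passage, against 3.21% and 4.41% in proliferating cells, and 2 of 8 fibroblast markers fell; their part was not tested.

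**Figure D3:**
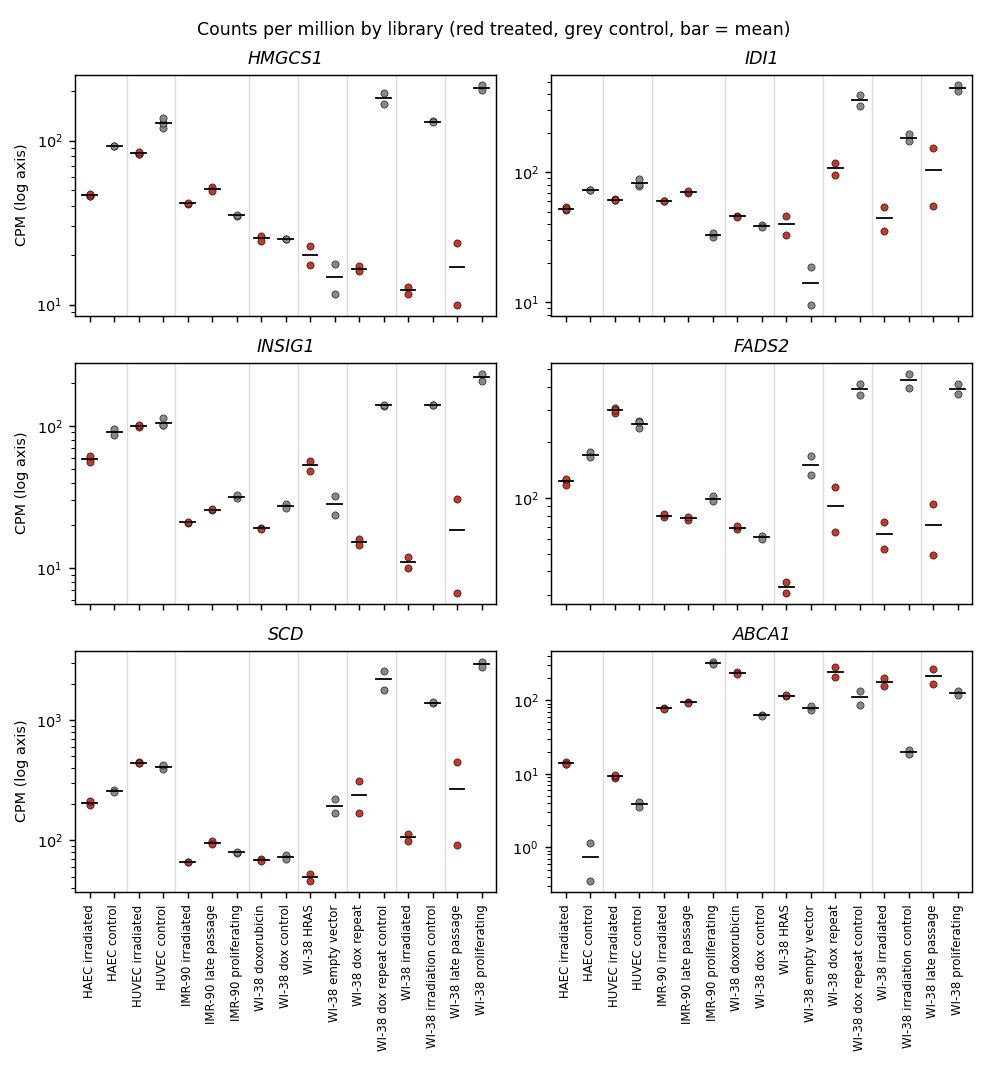
CPM on a log axis of 6 members in each of the 37 libraries, treated groups in red left of their controls in grey, with bars at the mean; CPM are scaled within each set of libraries. HMGCS1, INSIG1, FADS2 and SCD are low in the treated libraries of the last 3 WI-38 experiments and high in their controls, and ABCA1 is at 13.5 to 14.6 CPM in irradiated HAEC, against 0.352 and 1.14 CPM in control HAEC.

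INSIG1, FADS1 and FADS2 fell in 7 of the 9 comparisons, more than any other member, the 2 IMR-90 comparisons sharing their controls. For INSIG1 the exceptions were HUVEC and HRAS. INSIG1 had 99.9, 98.4 and 102 CPM in irradiated HUVEC, against 102, 102 and 114 CPM in control HUVEC (log2 fold change -0.08, SE 0.041, adjusted p = 0.145). INSIG1 had 57.2 and 48.6 CPM in WI-38 with HRAS, against 32.4 and 23.9 CPM in WI-38 with empty vector (log2 fold change 0.91, SE 0.16, adjusted p = 0.000539). Here INSIG1 rose with the sterol enzymes, and it fell with them in HAEC, the doxorubicin repeat, irradiated WI-38 and late-passage WI-38. In both IMR-90 comparisons INSIG1 fell while most of them rose. INSIG1 had 58.2, 56.2 and 61.5 CPM in irradiated HAEC, against 95.02 and 86.6 CPM in control HAEC (log2 fold change -0.63, SE 0.043, adjusted p = 1.92e-10). With the first doxorubicin experiment, INSIG1 had 19.2 and 18.9 CPM in doxorubicin-treated WI-38, against 28.4 and 26.3 CPM in control WI-38 (log2 fold change -0.52, SE 0.16, adjusted p = 0.0273). In the repeat, INSIG1 had 16.04 and 14.7 CPM in doxorubicin-treated WI-38, against 139 and 140.1 CPM in control WI-38 (log2 fold change -3.18, SE 0.46, adjusted p = 0.000902). The INSIG1 call in the first doxorubicin experiment was lost without any of its 4 libraries (adjusted p 0.0883 to 0.176).

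FADS1 rose in HUVEC and in the first doxorubicin experiment and fell in the rest. FADS1 had 79.1 and 80.8 CPM in WI-38 with HRAS, against 98.7 and 104 CPM in WI-38 with empty vector (log2 fold change -0.34, SE 0.11, adjusted p = 0.0266). In the doxorubicin repeat, FADS1 had 217 and 153 CPM in doxorubicin-treated WI-38, against 540.3 and 761 CPM in control WI-38 (log2 fold change -1.81, SE 0.25, adjusted p = 0.000652). FADS1 had 137 and 133 CPM in irradiated WI-38, against 417 and 426 CPM in control WI-38 (log2 fold change -1.64, SE 0.25, adjusted p = 0.000407). FADS1 with HRAS lost its call without HRAS library 1 (adjusted p = 0.148) or 2 (adjusted p = 0.108). FADS2 had 125, 117 and 126 CPM in irradiated HAEC, against 177 and 166 CPM in control HAEC (log2 fold change -0.48, SE 0.038, adjusted p = 1.78e-09). With the first doxorubicin experiment, FADS2 had 67.7 and 70.4 CPM in doxorubicin-treated WI-38, against 61.97 and 60.2 CPM in control WI-38 (log2 fold change 0.18, SE 0.14, adjusted p = 0.387). FADS2 had 92.7 and 49.3 CPM in late-passage WI-38, against 415 and 364 CPM in proliferating WI-38 (log2 fold change -2.46, SE 0.31, adjusted p = 0.000106). FADS2 thus rose in HUVEC, did not pass the test in the first doxorubicin experiment, and fell elsewhere. LSS, which closes the sterol ring, was the enzyme that rose in none of the 9 comparisons and fell in 5, and SCAP fell in none and rose in 3.

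Whether the responses differed between models was tested as a difference of log2 fold changes in 1 fit. The response of HAEC minus that of HUVEC was lower for 17 members and higher for 4, where 8.85% of the 30317 genes tested were lower and 9.11% higher. ABCA1 differed by 2.88 (SE 0.23, adjusted p = 2.32e-10), and among the fatty-acid genes ELOVL6 by -0.77 (SE 0.072, adjusted p = 5.47e-09). Of the 18 sterol enzymes 9 had a lower response in HAEC. These calls changed with the libraries in the fit: with all 37 in 1 edgeR fit 2 members were higher and 0 lower (6 lower at an unadjusted p below 0.05), and with DESeq2 4 were higher and 19 lower. The response of irradiated IMR-90 minus that of irradiated HAEC was higher for 21 members and lower for 4, where 22.5% of genes were higher and 21.4% lower. Higher responses were found for 17 sterol enzymes, EBP by 2.07 (SE 0.11, adjusted p = 7.61e-12), and all 3 LXR targets were lower, with ABCA1 at -6.16 (SE 0.21, adjusted p = 3.7e-14). The doses differ, with 10 Gy in IMR-90 and 4 Gy in HAEC, so cell kind and dose cannot be told apart. Irradiated against late-passage IMR-90 gave 12 members lower and 1 higher, where 5.45% of genes were lower and 5.12% higher; the member that was higher with irradiation was ABCG1, by 1.67 (SE 0.30, adjusted p = 0.00315), and SCD differed by -0.53 (SE 0.054, adjusted p = 4.77e-05). Lower calls numbered 1 without irradiated library 1, 3 without irradiated library 2 and 0 with all 37 libraries in 1 edgeR fit, where an unadjusted p below 0.05 gave 0 as well; DESeq2 called 13 lower.

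The responses of the WI-38 and IMR-90 groups differed in nearly all members. The response of irradiated WI-38 minus that of irradiated IMR-90, both at 10 Gy, was lower for 28 members and higher for 2, where 11.1% of the 36597 genes tested were lower and 8.84% higher. All 18 sterol enzymes were lower, with a median difference of -3.02, beside -0.20 over all genes. MSMO1 differed by -4.05 (SE 0.43, adjusted p = 1.24e-06) and ABCA1, in the other direction, by 5.14 (SE 0.33, adjusted p = 2.49e-09). At late passage the difference was lower for 27 members and higher for 2, where 7.29% of genes were lower and 4.6% higher. HMGCS1 differed by -4.20 (SE 0.35, adjusted p = 1.52e-07) and ABCG1 by 3.38 (SE 0.67, adjusted p = 0.00201). ABCG1 had only 0.430 and 0.287 CPM in late-passage WI-38, against 0.151 and 0.127 CPM in proliferating WI-38. It did not pass the test in that comparison and was also low in IMR-90, so the size of its difference is uncertain. Strain and kind of library cannot be told apart in either test. In protein-coding CPM, sterol enzymes held 953 and 941 in irradiated WI-38, against 4517 and 4443 in their controls, and 1266 in both irradiated IMR-90 libraries, against 873 and 898 in the cells labelled proliferating.

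The same treatment of the same strain also gave different responses. The doxorubicin repeat minus the first doxorubicin experiment was lower for 23 members and did not pass the test for the other 9, where 1.83% of the 36964 genes tested were lower and 2.59% higher. Of the sterol enzymes 16 were lower, and HMGCS1 differed by -3.44 (SE 0.38, adjusted p = 3.83e-06). In protein-coding CPM, sterol enzymes held 1133 and 1099 in treated libraries of the repeat, against 3713 and 4169 in its controls, and 964 and 1000 in treated libraries of the first experiment, against 959 and 969 in its controls. In this measure the controls differed more than the treated libraries between experiments, where experiment and kind of library cannot be told apart. Division markers summed to 307 and 381 CPM in controls of the repeat, against 1314 and 1268 CPM in controls of the first experiment. In treated libraries they summed to 228 and 210 CPM in the repeat, against 157 and 147 CPM in the first experiment. The part of division in this difference was not tested. None of the LXR targets passed the test of this difference, and that of ABCA1 was -0.73 (SE 0.31, adjusted p = 0.235). With HRAS minus the first doxorubicin experiment, 12 members were higher and 9 lower, where 21.6% of genes were higher and 14% lower; all 3 LXR targets were lower, with ABCG1 at -1.97 (SE 0.32, adjusted p = 0.00052), and SCD differed by -1.88 (SE 0.21, adjusted p = 3.31e-05). Between irradiated and late-passage WI-38, 2 members were higher with irradiation and 1 lower, where 4.25% of genes were higher and 2.01% lower. The higher ones were ABCA1, by 2.39 (SE 0.37, adjusted p = 0.00111), and MYLIP, by 2.10 (SE 0.31, adjusted p = 0.000682), and the lower one was MVK, at -1.73 (SE 0.40, adjusted p = 0.0162). Leaving out 1 library moved the higher count to 5 at most (without late-passage library 1) and the lower count to 0 (without irradiation control 2 or proliferating library 2) or up to 3 (without late-passage library 2), with 2 without irradiated library 2.

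**Figure D4:**
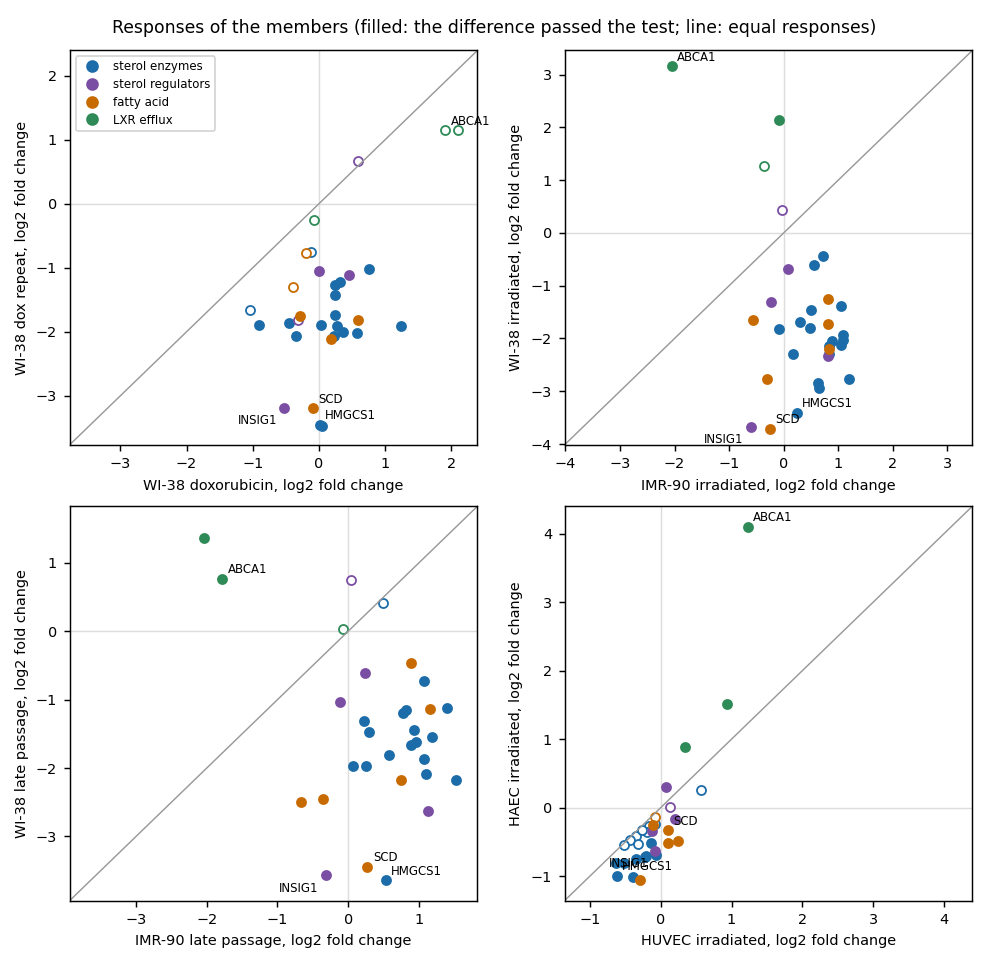
Log2 fold changes of the 32 members in pairs of comparisons with separate controls; filled points passed the test of the difference and the line marks equal responses. In the WI-38 against IMR-90 panels nearly all sterol enzymes lie below the line and ABCA1 above it, and in the panel of HAEC against HUVEC ABCA1 stands at 4.10 and 1.23.

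Among 41 other genes of these pathways, 40 were tested, and their calls are given beside the share of all genes called. In HAEC 8 of 40 were higher (19.7% of all genes) and 16 lower (19.9%), and in HUVEC 7 (18.6%) and 15 (20.1%). Irradiated IMR-90 had 17 higher (26.6%) and 12 lower (22.5%), and late-passage IMR-90 19 (26.6%) and 12 (23.5%). In WI-38 there were 15 higher (13.6%) and 3 lower (13.2%) with doxorubicin, 26 (27.1%) and 5 (18.9%) with HRAS, and 3 (3.18%) and 4 (2.26%) in the doxorubicin repeat. Irradiated WI-38 had 6 higher (8.89%) and 4 lower (6.09%), and late-passage WI-38 5 (5.8%) and 8 (6.82%).

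The isoprenoid branch, 9 genes that lead from the same path to dolichol, coenzyme Q and prenylated proteins, had 3 genes lower in HAEC (median -0.07) and 5 in HUVEC (median -0.23), where the shares over all genes were 19.9% and 20.1%. In IMR-90 5 of the 9 rose with irradiation (median 0.16) and 5 at late passage (median 0.20), where 26.6% of all genes rose in each. With HRAS 7 rose (median 0.69), where 27.1% of all genes rose, and in the first doxorubicin experiment 1 fell (median -0.06), where 13.2% fell. In the doxorubicin repeat, irradiated and late-passage WI-38 all 9 missed the threshold in edgeR, with medians of 0.29, 0.05 and -0.21; at an unadjusted p below 0.05, 2 were higher in the repeat, 0 moved with irradiation, and 1 was higher and 1 lower at late passage. Of 3 further LXR targets (LPCAT3, SMPDL3A and PLTP), all fell in irradiated and late-passage IMR-90 (medians -1.26 and -1.40). There 22.5% and 23.5% of all genes fell. Of the 3, 2 rose with doxorubicin in the first experiment (13.6% of all genes) and in irradiated WI-38 (8.89%). Only 1 rose in HAEC (19.7%) and in HUVEC (18.6%), with medians of 0.03 and 0.02. With HRAS 1 rose (27.1%) and 1 fell (18.9%), and 1 fell in late-passage WI-38 (6.82%, median -0.63). In the doxorubicin repeat none passed the test (median 0.18). CH25H, which makes 25-hydroxycholesterol, an oxysterol that holds SREBP back and activates LXR, was chosen after its values were seen. It had 0.798, 0.705 and 0.703 CPM in irradiated HAEC, against 0.0395 and 0.0201 CPM in control HAEC. It rose there (log2 fold change 4.51, adjusted p = 1.53e-08), as in the first doxorubicin experiment (3.18), its repeat (1.91) and irradiated WI-38 (3.01), and it fell in irradiated (-3.79) and late-passage IMR-90 (-5.57) and with HRAS (-1.29). In HUVEC (0.99, adjusted p = 0.246) and late-passage WI-38 (0.04, adjusted p = 0.976) it did not pass the test. Its levels were low in all libraries, 3.39 CPM at most. CYP27A1, which makes 27-hydroxycholesterol, was the other oxysterol enzyme tested, and CYP7B1 did not pass the filter on low counts. CYP27A1 rose in HAEC (log2 fold change 1.14), HUVEC (0.98) and the first doxorubicin experiment (0.60) and fell in irradiated (-1.31) and late-passage IMR-90 (-1.30) and with HRAS (-1.20). In the doxorubicin repeat it fell where CH25H rose, with 8.65 and 8.18 CPM in treated cells, against 20.5 and 13.5 CPM in controls (-1.01, adjusted p = 0.0356). It did not pass the test in irradiated (0.71, adjusted p = 0.0799) or late-passage WI-38 (-0.56, adjusted p = 0.194).

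Per kilobase of exon, the most abundant members differed between cells and, within WI-38, between experiments and treatments. The kind of library also differs between these sets. On mean CPM per kilobase, ACLY led in all 3 groups of IMR-90 and in WI-38 of the first doxorubicin and the HRAS experiments, from 30.2 in IMR-90 labelled proliferating to 99.97 in WI-38 with HRAS. SCD led in the controls of the last 3 WI-38 experiments, at 261 to 545, in treated cells of the doxorubicin repeat, at 44.7, and in irradiated and control HUVEC, at 82.4 and 76.6. FDPS, which makes farnesyl diphosphate, led in irradiated and control HAEC, at 44.6 and 53.4. FDFT1, another of the sterol enzymes, led in irradiated and late-passage WI-38, at 47.0 and 63.7. Exon lengths come from a later annotation than the counts may have used, and 79.4% of the exon bases of CYP51A1 overlap other gene models on its strand, so its level is uncertain.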

How the data were processed

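The authors deposited raw counts of reads, in whole numbers, for 57773 Ensembl gene identifiers in each library. Per the submitters' processing notes, bcl2fastq, cutadapt, STAR 2.4 and featureCounts were used with the genome build hg19. The sources used here give no settings, annotation or strand for these steps. Identifiers were matched to symbols through a gene name table (51996) and an annotation (342). The members and lists were chosen with earlier results of these data known. Libraries were fitted in 5 sets (HAEC, HUVEC, IMR-90 and both WI-38 sets) in edgeR 4.0.16 under R 4.3.3, with TMM scaling, the filterByExpr filter and the quasi-likelihood test. P-values were adjusted over all genes tested (Benjamini-Hochberg), with a threshold of 0.05. Differences between responses were contrasts in joint fits. The spread between replicates (common biological coefficient of variation) was 5.69% in HAEC, 6.94% in HUVEC and 8.41% in IMR-90. It was 16.3% in WI-38 of the first doxorubicin and the HRAS experiments and 38.1% in the other WI-38 set. Where sets were joined they shared 1 estimate of the spread per gene. Those SEs and p-values therefore measure the spread of neither set alone. Sets with a wide spread also pass fewer changes of the same size. SE is the log2 fold change divided by the root of F. Genes were named by a rule: in each comparison the 2 called members with the highest and the 2 with the lowest fold change in the sterol and the fatty-acid class, 1 and 1 among LXR targets, and members called one way in at least 7 of 9 comparisons. Alternatives were DESeq2 1.42.0, its size factors, no filter, other sets of libraries, a replicate term and leaving out each library. The fits were tested on simulated data.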

Additional observations from a re-analysis of the deposited data

Results flagged for a closer look

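The 8 tested differences between responses each held members past the threshold (edgeR, adjusted over all genes). HAEC minus HUVEC had 4 members higher and 17 lower, and irradiated IMR-90 minus irradiated HAEC had 21 higher and 4 lower. Irradiated minus late-passage IMR-90 had 1 higher and 12 lower, with shared controls. WI-38 minus IMR-90 had 2 higher and 28 lower after irradiation, and 2 higher and 27 lower at late passage. HRAS minus doxorubicin in WI-38 had 12 higher and 9 lower. The doxorubicin repeat minus the first experiment had 23 lower. Irradiated minus late-passage WI-38 had 2 higher and 1 lower. No group held enough libraries for a test of single outlying libraries.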

How the results depend on the processing

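Of 2976 recomputed member values, 2747 kept their direction and side of the threshold. The reversed one was STARD4 with HRAS, at 0.02 in the fit of its set, -0.43 (adjusted p = 0.00954) without empty vector library 2 and 0.50 without library 1; the cause was not tested. With all 37 libraries in 1 fit, members lower were 10 in HAEC, 5 in HUVEC (3 higher), 2 in irradiated and 3 in late-passage IMR-90; members higher were 3 in the doxorubicin repeat and 3 in late-passage WI-38; HAEC minus HUVEC gave 2 higher and 0 lower, irradiated minus late-passage IMR-90 0 lower, and the same in WI-38 10 lower. With the compared groups alone, doxorubicin gave 14 higher and 9 lower and late-passage WI-38 2 higher. DESeq2 gave 2 higher in the doxorubicin repeat and in late-passage WI-38, and 2 lower for irradiated minus late-passage WI-38. Without a filter the last 2 were 2 and 3. Leaving out 1 library gave 3 to 5 higher and 2 lower with doxorubicin, 0 to 1 higher in the doxorubicin repeat and late-passage WI-38, 1 to 12 lower for irradiated minus late-passage IMR-90, and for the same in WI-38 2 to 5 higher and 0 to 3 lower. A lone library was then assumed to vary like the other groups.

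Over all genes, counts moved by over 1.5 times in several fits. With all 37 libraries HAEC had 2315 higher and 1627 lower (5531 and 5587 in the set's own fit), HUVEC 1443 and 1826 (5132 and 5520), the doxorubicin repeat 3141 and 3323 (1070 and 761), irradiated WI-38 5071 and 5753 (2988 and 2048) and late-passage WI-38 4556 and 4592 (1951 and 2292). With the doxorubicin groups alone 6373 rose and 6323 fell (3992 and 3876). DESeq2 gave 1945 and 1664 in the repeat. The labels do not say that same-numbered libraries were paired. Their deviations correlated at 0.72 for HRAS against empty vector and at 0.49 for irradiated WI-38 against its controls. In the other comparisons the correlations lay between -0.33 and 0.12. The tests as reported hold no term for such a pairing. With the replicate block, 279 member values kept their call, 6 lost it and 3 gained it.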
